A study of Mus musculus with 2 samples.

Results

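A list of 33 imprinted genes, named by symbol, was looked up on the arrays of whole E15.5 pancreas. A gene was measured where a probe set carries its symbol and no other, which held for 27 of the 33, each with 1 probe set, among 19938 genes measured in all. The WT array holds RNA of wild type embryos and the *Mafk*-Tg array that of embryos with a FLAG-tagged mouse *Mafk* cDNA under the rat insulin I promoter. This promoter is active in β-cells, which make up a small part of the tissue. Both groups were kept on the ICR background and no treatment is named for either. The study describes 3 pancreata per genotype, and whether RNA was pooled is not stated in the sources used here. There is 1 array per genotype, so no spread between replicates exists, no test was run, and every difference below is between these 2 arrays. The arrays do not tell the parental alleles apart, and in whole tissue fewer cells of a type and less RNA per cell cannot be told apart.

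Genomic imprinting silences a gene on the chromosome inherited from a given parent, so that RNA comes mainly from the other copy. Many imprinted genes act on fetal growth: paternally expressed genes such as *Igf2* tend to promote it and maternally expressed genes such as *Igf2r*, *Grb10* and *Cdkn1c* tend to restrain it. They lie in clusters that share a control region, and in a cluster the genes of both parental classes often sit side by side. In the pancreas, neuronatin and p57, the products of *Nnat* and *Cdkn1c*, have known roles in β-cells.

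Values are given as log2 signal, and each array's median was 6.01. For each gene the WT value was subtracted from the *Mafk*-Tg value, and 1.2-fold, the cutoff of the study, corresponds to 0.26. *Mafk* itself differed by 0.25, under the cutoff. The acinar markers were present, with 10 of 11 at or above the median level, as were 14 of 14 endocrine markers. *Xist*, the RNA of the inactive X chromosome, had 4.40 in WT and 11.30 in *Mafk*-Tg, while all 3 Y-linked genes measured had large negative differences, -5.68 for *Eif2s3y*, -4.67 for *Uty* and -3.93 for *Kdm5d*. Sex-linked expression thus differed along with the transgene and the effects of the pair cannot be told apart, and 0 of the 33 imprinted genes lie on a sex chromosome.

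The imprinted genes were close to equal in the 2 arrays. Of the 27 measured, 2 reached 1.2-fold upward in *Mafk*-Tg, *Rian* and *Nap1l5*, and 2 reached it downward, *Rtl1* and *Slc22a18*. That is 7.41% in each direction, where 7.96% of all genes measured were higher and 10.5% were lower, so the share of imprinted genes past the cutoff was near that of all genes. Their differences ran from -0.29 to 0.32 with a median of 0.03, and the median over all genes was -0.01. Dim genes pass 1.2-fold more often: 27.8% of genes with a mean below the median of all probe sets, called dim here, differed by that much up or down, and 11.5% of the brighter genes did. Among the imprinted genes 1 of 6 dim ones passed, and 3 of 21 of the others.

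**Figure D1:**
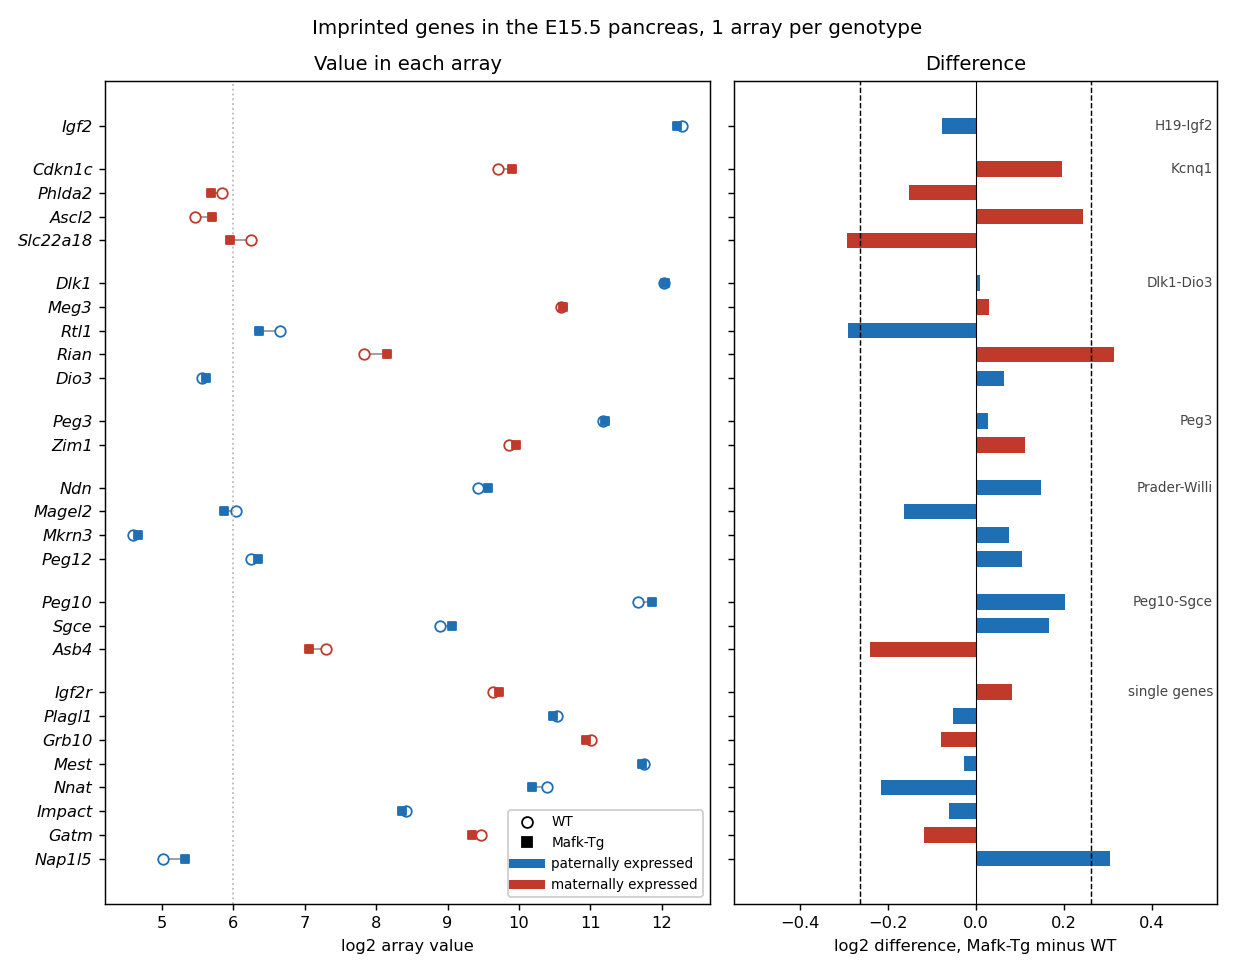
Log2 array value of 27 imprinted genes in WT (circles) and *Mafk*-Tg (squares), left, and the log2 difference, right, grouped by imprinted domain, with 1 array for each genotype. The dotted line is the median of all probe sets and dashed lines mark 1.2-fold. *Rian* and *Nap1l5* lie beyond the upper line and *Rtl1* and *Slc22a18* beyond the lower one.

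The medians of both parental classes lay near 0. The classes are those generally given for each gene, and parental expression was not measured in this tissue. Of 16 paternally expressed genes measured, 1 was higher and 1 was lower, with 9 differences above 0, 7 below and a median of 0.02. Of 11 maternally expressed genes, 1 was higher and 1 was lower, with 6 above 0, 5 below and a median of 0.03. *Gnas*, whose products differ in parental origin, had no probe set of its own and belongs to neither class. The 9 imprinted genes with a WT value above 10 ran from -0.22 to 0.20.

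**Figure D2:**
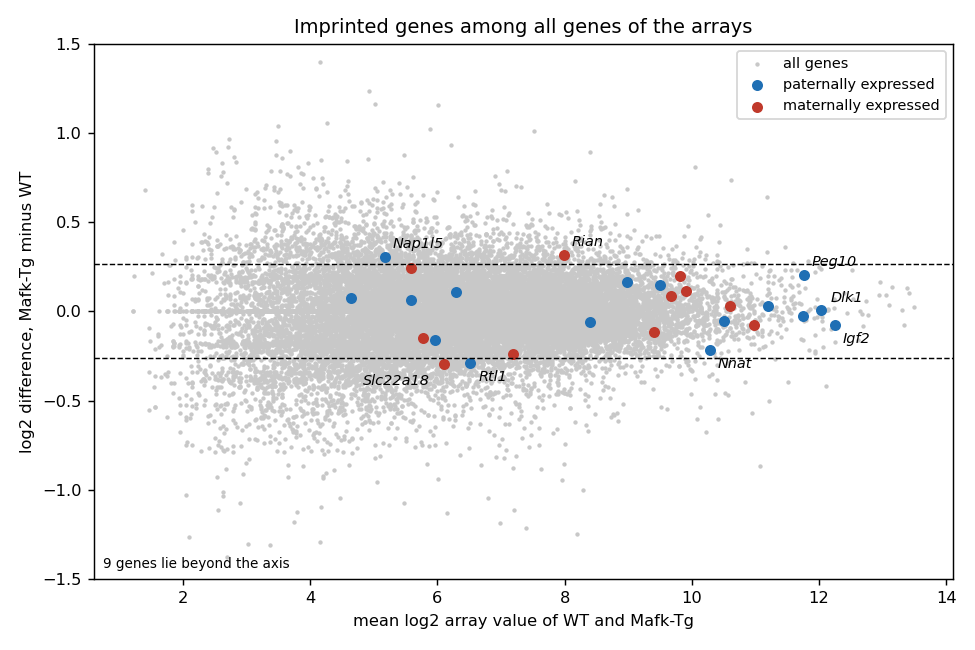
Log2 difference, *Mafk*-Tg minus WT, against the mean log2 value of the 2 arrays for all 19938 genes (grey) and for the 27 imprinted genes (blue, paternally expressed; red, maternally expressed), with dashed lines at 1.2-fold. Grey points spread more widely at low levels, and *Igf2* and *Dlk1*, at the bright end, lie between the lines at -0.08 and 0.01.

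*Igf2*, which encodes the main growth factor of the fetus, had 12.29 in WT and 12.21 in *Mafk*-Tg, differing by -0.08. *Igf2r*, the receptor that carries IGF2 to lysosomes for breakdown, had 9.64 and 9.72, a difference of 0.08. *Grb10*, an adaptor that dampens signalling of the insulin and IGF receptors, had 11.01 and 10.94, a difference of -0.08. Each of the 3 was smaller than the scatter of differences among the 500 genes nearest to it in level, a robust SD of 0.13 to 0.14. This robust SD describes the spread among genes and is not an error of replicates. *H19*, the maternally expressed noncoding RNA beside *Igf2*, had no probe set of its own. A probe set listed under both *Mir675*, a microRNA gene that lies within *H19*, and the unrelated *Supt6* had 11.71 in WT and 11.99 in *Mafk*-Tg, differing by 0.27, but it cannot be assigned to either gene.

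Other genes of IGF signalling were listed beside these. Of 18 measured, 1 was higher and 2 were lower, where 7.96% of all genes were higher and 10.5% were lower. Their differences had 5 above 0, 13 below and a median of -0.07. *Igf1*, the related growth factor, had 9.63 in WT and 9.90 in *Mafk*-Tg and fell short of 1.2-fold after quantile normalization. *Lin28b*, which encodes a fetal RNA-binding protein, and the binding protein gene *Igfbp6* were lower by 0.47 and 0.31, both below the median level, and are named here after their values were seen. The receptor genes *Igf1r* and *Insr* had differences of 0.00 and -0.01. With the brightest probe set of each gene in place of the mean, 4 of the 18 were lower.

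The *Kcnq1* domain, on chromosome 7 like *Igf2*, holds growth-restraining genes expressed from the maternal chromosome and silenced on the other by the noncoding RNA *Kcnq1ot1*, which had no probe set of its own. *Cdkn1c*, which encodes the cell cycle inhibitor p57, had 9.71 in WT and 9.91 in *Mafk*-Tg, differing by 0.20, against a robust SD of 0.14 among genes of similar level. *Slc22a18*, a transporter-like membrane protein gene, was 1.23-fold lower, with 6.25 and 5.96. *Ascl2*, a transcription factor gene of trophoblast, had 5.46 and 5.70, a difference of 0.24 that fell short of 1.2-fold. *Phlda2*, whose product restrains placental growth, had 5.84 and 5.69. The latter pair lay below the median level and *Slc22a18* just above it, and the 4 genes had 2 differences above 0 and 2 below. *Kcnq1* itself had a difference of 0.22.

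The *Dlk1*-*Dio3* domain, on chromosome 12, is a cluster in which protein-coding genes are paternally expressed and a long stretch of noncoding RNA is maternally expressed. Within it *Rian* was higher and *Rtl1* lower. *Rian*, a noncoding RNA that hosts small nucleolar RNAs, had 7.83 in WT and 8.15 in *Mafk*-Tg, 1.24-fold higher. Its difference of 0.32 compares with a robust SD of 0.15 among genes of similar level. *Rtl1*, a retrotransposon-derived gene of placental capillaries, had 6.65 and 6.36, 1.22-fold lower, with a robust SD of 0.19 at its level.

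The differences of *Meg3*, *Dlk1* and *Dio3* were within 1.2-fold. *Meg3*, the noncoding RNA at the start of the maternal stretch, had 10.58 and 10.61, a difference of 0.03. *Dlk1*, which encodes a membrane protein related to the Notch ligands, had 12.03 and 12.04, a difference of 0.01 that ran from -0.01 to 0.04 under other scalings. *Dio3*, the gene of the enzyme that inactivates thyroid hormone, had 5.56 and 5.62. *Mirg* had no probe set of its own. A probe set listed under *Mirg* and *Mir410* had 6.50 and 6.82, a difference of 0.32, and one listed under *Rian* and the small nucleolar RNA gene *AF357355* had 8.68 and 9.21, a difference of 0.53. These probe sets name more than 1 gene and were left out of the counts.

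The 3 small nucleolar RNA genes of the domain with a probe set of their own had differences above 0. *DQ267102* had 11.11 in WT and 11.34 in *Mafk*-Tg, differing by 0.23 at a level far above the median. *DQ267101* had 5.13 and 5.65, a difference of 0.52. *AF357341* had 4.31 and 4.58, a difference of 0.27. *DQ267101* and *DQ267102* lie within the annotated span of *Rian*, so their values need not be independent of its value. The 3 small nucleolar RNA genes were looked up after the value of *Rian* had been seen, and *DQ267101* and *AF357341* lie below the median level.

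The microRNA genes of the same maternal stretch lay on both sides of 0. Of 40 between *Dlk1* and *Dio3* with a probe set of their own, 8 were at least 1.2-fold higher and 5 lower, with a median of 0.01, and 22 of the 40 lay below the median level. At or above it, 3 of 18 were higher and 1 was lower. Among all genes, 11.5% of those at or above this level and 27.8% of those below it passed 1.2-fold in either direction. *Mir540*, with 6.67 in WT and 7.19 in *Mafk*-Tg, had the largest difference of these 18, at 0.51, and its neighbour *Mir665* had 6.77 and 7.17, a difference of 0.40. These values come from probe sets for the genes, so they do not separate the primary RNA from the mature microRNA. They are therefore not a measure of the mature form.

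**Figure D3:**
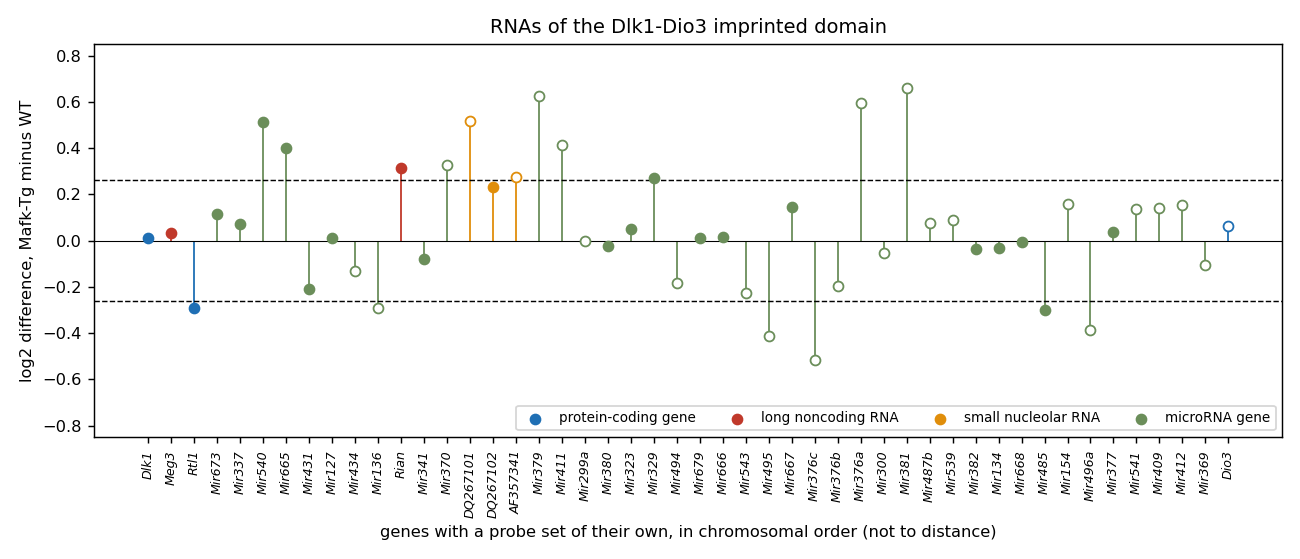
Log2 difference, *Mafk*-Tg minus WT, of the genes between *Dlk1* and *Dio3* that have a probe set of their own, in chromosomal order, with 1 array for each genotype, where dashed lines mark 1.2-fold. Filled symbols lie at or above the median level and open symbols below it. *Rian* and the 3 small nucleolar RNA genes beside it are above 0, and the microRNA genes spread to both sides.

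Within the annotated span of *Rtl1* lie 8 of these microRNA genes. *Mir431*, *Mir127*, *Mir434* and *Mir136* are transcribed from the strand opposite to *Rtl1*, are matched to its RNA base for base and direct its cleavage. *Mir127* had 6.17 in WT and 6.18 in *Mafk*-Tg, differing by 0.01. *Mir431* had a difference of -0.21, *Mir136* one of -0.29 and *Mir434* one of -0.13. The last pair, of which *Mir136* was past 1.2-fold, lay far below the median level, at 3.69 and 2.83 in WT. A probe set listed under *Mir433* and *6430411K18Rik* had equal values of 6.48 in both arrays. The mature sequences of these 4 microRNAs and of the higher *Mir540* and *Mir665* are shown, both arms of each, 5′ to 3′ from RefSeq (GRCm38.p6, chromosome 12, plus strand), with the seed, bases 2 to 8, in capitals. The 12 arms have 12 different seeds.
miR-540-5p: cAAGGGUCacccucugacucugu
miR-540-3p: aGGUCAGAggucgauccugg
miR-665-5p: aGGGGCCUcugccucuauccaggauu
miR-665-3p: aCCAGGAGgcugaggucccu
miR-431-5p: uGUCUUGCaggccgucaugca
miR-431-3p: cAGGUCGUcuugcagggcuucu
miR-127-5p: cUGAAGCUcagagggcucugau
miR-127-3p: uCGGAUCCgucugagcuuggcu
miR-434-5p: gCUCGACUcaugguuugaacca
miR-434-3p: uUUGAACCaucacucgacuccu
miR-136-5p: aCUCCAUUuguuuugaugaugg
miR-136-3p: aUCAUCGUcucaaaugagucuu

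*Peg10* and *Sgce*, paternally expressed neighbours on chromosome 6 that are transcribed away from each other, both had small positive differences. *Peg10*, a retrotransposon-derived gene needed in the placenta, had 11.66 in WT and 11.86 in *Mafk*-Tg, differing by 0.20 where the robust SD at its level was 0.12. *Sgce*, which encodes ε-sarcoglycan of the membrane, had 8.90 and 9.07, a difference of 0.17. *Asb4*, a maternally expressed gene of the same cluster whose product recruits proteins to a ubiquitin ligase, went the other way with 7.30 and 7.06, a difference of -0.24. None of the 3 reached 1.2-fold.

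The *Peg3* and Prader-Willi domains, both also on chromosome 7, held no gene past the cutoff. *Peg3*, a zinc finger gene of growth and maternal behaviour, had 11.18 in WT and 11.20 in *Mafk*-Tg. *Zim1*, its maternally expressed zinc finger neighbour, had 9.85 and 9.97. *Ndn*, which encodes the MAGE family protein necdin, had 9.42 and 9.57, a difference of 0.15. *Magel2*, of the same family, had 6.04 and 5.88, a difference of -0.16. *Mkrn3*, a ubiquitin ligase gene known from puberty timing, had 4.60 and 4.67, and *Peg12*, a FRAT family gene, had 6.24 and 6.35. *Magel2* and *Mkrn3* lay below the median level. A probe set listed under *Snurf* and *Snrpn*, which share a transcript, had 6.52 and 6.36, a difference of -0.16.

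Among imprinted genes outside these clusters, *Nap1l5*, a nucleosome assembly family gene, was 1.24-fold higher, with 5.02 in WT and 5.33 in *Mafk*-Tg, both below the median level, where the robust SD was 0.22. *Nnat*, which encodes neuronatin, a small membrane protein of the endoplasmic reticulum, had 10.40 and 10.18. Its difference of -0.22 did not reach 1.2-fold but exceeded the robust SD of 0.13 at its level. *Blcap*, the gene in whose intron *Nnat* lies, was higher by 0.31. *Gatm*, of creatine synthesis, had 9.46 and 9.35.

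The remaining genes of this kind were within 1.2-fold. *Plagl1*, the gene of a zinc finger factor that restrains the cell cycle, had 10.54 in WT and 10.48 in *Mafk*-Tg. *Mest*, a hydrolase-like gene of mesoderm, had 11.76 and 11.73. *Impact*, a regulator of the GCN2 kinase of the amino acid response, had 8.42 and 8.36. A probe set listed under *Gnas*, which encodes the stimulatory G protein subunit, and *Gnasas1* had 10.77 and 10.69. *Zrsr1* had no probe set of its own.

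Promoter windows of the genes past the cutoff were read from RefSeq (GRCm38.p6), each spanning 250 bases before to 50 after an annotated start, and that of *Meg3* is shown beside them because *Rian* belongs to the same maternal stretch. Windows were found for 27 of the 33 imprinted genes, and none for *Rtl1*, *Peg10*, *Sgce*, *Cdkn1c*, *H19* and *Impact*. The MAF half-site TGCTGA, the core that small MAF proteins contact, was searched on both strands and is in capitals. It stood in 5 of 41 windows of imprinted genes, or 12.2%, and in 19.5% of all 32851 windows of the same length. Some genes have several windows, so shares by window and by gene differ. Counted by gene, the half-site stood in 5 of 27 imprinted genes and in 5859 of all 27025 genes with a window. Of the 4 windows shown, that of *Nap1l5* holds it once. A further window of *Meg3*, at chr12:109545148-109545447, also holds it once. The windows shown for *Nap1l5* and *Meg3* hold 17 and 13 CpG dinucleotides, that of *Slc22a18* holds 2 and that of *Rian* 0. A match is a run of letters and does not show binding.
Meg3 (GRCm38.p6, chr12:109540746-109541045, plus strand): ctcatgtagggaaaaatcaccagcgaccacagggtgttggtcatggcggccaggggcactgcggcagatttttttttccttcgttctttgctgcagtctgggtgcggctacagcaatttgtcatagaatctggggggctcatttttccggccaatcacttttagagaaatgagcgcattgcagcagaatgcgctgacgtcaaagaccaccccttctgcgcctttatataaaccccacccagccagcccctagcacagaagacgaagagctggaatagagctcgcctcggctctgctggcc
Rian (GRCm38.p6, chr12:109603695-109603994, plus strand): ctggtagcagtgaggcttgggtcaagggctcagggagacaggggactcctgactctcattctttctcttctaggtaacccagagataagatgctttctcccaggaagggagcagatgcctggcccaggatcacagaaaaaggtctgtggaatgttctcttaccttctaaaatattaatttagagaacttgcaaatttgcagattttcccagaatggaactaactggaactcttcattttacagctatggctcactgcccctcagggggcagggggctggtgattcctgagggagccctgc
Nap1l5 (GRCm38.p6, chr6:58907077-58907376, minus strand): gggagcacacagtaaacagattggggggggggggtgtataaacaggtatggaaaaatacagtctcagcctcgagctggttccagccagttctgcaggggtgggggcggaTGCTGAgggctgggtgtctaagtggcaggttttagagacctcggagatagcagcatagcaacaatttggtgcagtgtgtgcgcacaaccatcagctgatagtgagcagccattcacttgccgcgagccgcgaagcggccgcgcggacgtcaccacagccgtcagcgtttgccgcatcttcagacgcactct
Slc22a18 (GRCm38.p6, chr7:143473539-143473838, plus strand): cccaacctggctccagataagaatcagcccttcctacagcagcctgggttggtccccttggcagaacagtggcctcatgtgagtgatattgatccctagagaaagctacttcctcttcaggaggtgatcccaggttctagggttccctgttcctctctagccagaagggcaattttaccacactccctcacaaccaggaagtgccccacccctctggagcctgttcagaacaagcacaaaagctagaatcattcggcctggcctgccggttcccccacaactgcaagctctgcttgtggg

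Imprinted genes outside the list, many of them imprinted in some tissues alone, gave a similar count. Whether these or the listed genes are imprinted in the pancreas was not measured. Of the 37 measured outside the list, 3 were higher and 4 were lower, with a median of -0.01. Among all genes, 7.96% were higher and 10.5% were lower. *Zdbf2*, a paternally expressed zinc finger gene, was higher with 7.66 in WT and 8.10 in *Mafk*-Tg, and *Blcap* was higher with 6.98 and 7.29. *Ampd3*, an AMP deaminase gene of red blood cells, was lower with 7.44 and 7.02, and *Ins2*, the insulin gene next to *Igf2* that is imprinted in yolk sac, with 8.79 and 8.40. Of those below the median level, *Kcnk9*, a potassium channel gene, had the largest difference of the list at -1.07 and *Tspan32*, a tetraspanin gene of blood cells, had -0.75. *Th*, of catecholamine synthesis, had 0.38. These 3 are named after their values were seen.

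The genes that maintain imprints lay close to 0. Of 19 measured, 0 were higher and 1 was lower, where 7.96% of all genes were higher and 10.5% were lower. A difference below 0 was seen in 16 of the 19, and the share of all genes below 0 was not counted. Their median was -0.04, where that of all genes was -0.01 and the robust SD of genes at or above the median level was 0.15. *Ehmt2*, which encodes the histone methyltransferase G9a, was lower with 8.88 in WT and 8.58 in *Mafk*-Tg. *Trim28*, the corepressor that binds imprint control regions, had a difference of -0.25, and *Zfp57*, the zinc finger protein gene that brings it there, had -0.20. *Dnmt1*, the maintenance DNA methyltransferase, had -0.12, and *Ctcf*, the insulator factor of the *Igf2* and *H19* locus, had -0.01. Those 4 did not reach 1.2-fold.

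Markers of other cell types moved by more than the imprinted genes did. The median level of 15 leukocyte markers was 7.93 in WT and 7.43 in *Mafk*-Tg, with 13 lower and a median difference of -0.60, and *Ctsg*, a granule protease gene, had -1.25. That of 12 erythroid markers was 7.71 and 7.20, with 8 lower, 2 higher and a median difference of -0.53, and *Car1*, a carbonic anhydrase gene, had -1.19. The 2 higher ones were the globin genes *Hba-x*, at 0.58, and *Hbb-y*, at 0.35. *Hbb-bh1*, the other globin gene measured on that list, lay below the median level and had -0.22. The median level of 14 hepatocyte markers was 7.30 and 6.80, with 9 lower, 1 higher and a median difference of -0.41. The apolipoprotein gene *Apob* had -0.94. *Alb*, a defining hepatocyte gene, had 11.23 and 10.66, and *Afp*, the fetal one, 8.42 and 8.08. *Ttr*, the hepatocyte marker that was higher, had 10.29 and 10.56.

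The tissue's own cell types had smaller median differences, though most endocrine markers passed 1.2-fold in one direction or the other. The mesenchyme markers had a median difference of -0.11, with 2 of 15 lower and 0 higher, and the endothelial markers one of -0.14, with 1 of 12 lower and 0 higher. The acinar markers had 0.20, with 2 of 11 higher, the endocrine markers 0.26, with 7 of 14 higher and 2 lower, and the duct and trunk markers 0.15, with 1 of 10 higher and 1 lower. The largest endocrine differences were those of *Chgb*, at 0.73, and *Ppy*, at 0.56, while *Ins2* had -0.40. The nerve and glia markers had a median of 0.12, with 1 of 9 higher and 1 lower. The part of these shifts in the values of the imprinted genes was not tested.

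**Figure D4:**
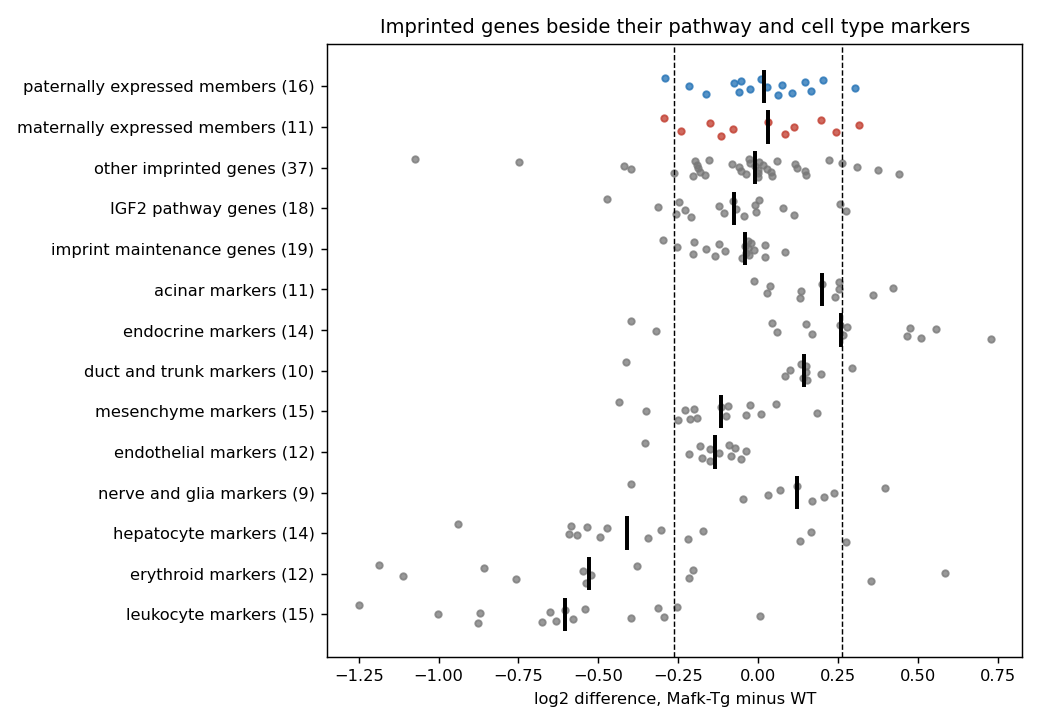
Differences between the 2 arrays (log2, *Mafk*-Tg minus WT) for every gene measured (points, number in brackets) and the median (bars) of the 2 parental classes, 3 related lists and 9 lists of cell type markers, where dashed lines mark 1.2-fold. The parental classes centre on 0.02 and 0.03, while the leukocyte markers centre on -0.60.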

How the data were processed

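Total RNA of whole E15.5 pancreas was hybridised to Affymetrix MoGene-1_0-st-v1 arrays, and the WT and the *Mafk*-Tg array (1 each) were used. The deposited log2 values are those the authors obtained by normalization and probe set summarization in Affymetrix Expression Console, with its algorithm and version not given in the sources used here. They were used as deposited. The platform table gave 21789 of 35556 probe sets 1 gene symbol and 1621 several, while 12146 stayed unnamed here. Log2 values of single-symbol probe sets were averaged by gene, giving 19938 genes. The number of arrays limits the precision, and no test was possible. Genes named are all members measured, up to 5 genes per related list past 1.2-fold with a mean not below the median of all probe sets, up to 2 per marker list, and genes of known roles (*Igf1r*, *Insr*, *Kcnq1*, *Trim28*, *Zfp57*, *Dnmt1*, *Ctcf*, *Alb*, *Afp*) and small RNA genes added after their values were seen. *Hba-x*, *Hbb-y* and *Ttr* were also added then, as the markers that were higher in lists where most were lower. *Hbb-bh1* was added as the other globin gene of the erythroid list. The imprinted genes, lists and parental classes were chosen with earlier results of these data known. Small RNA genes were placed between *Dlk1* and *Dio3* through RefSeq (GRCm38.p6). Alternatives comprised 3 other scalings (equal medians, quantile normalization, loess with a span of 0.3), use of the brightest probe set, removal of dim genes, and cutoffs of 0.20 on the log2 scale and of 1.5-fold. Adding probe sets with several symbols was chosen after seeing the data. The scaling steps were run on simulated data in which a small share of genes was changed by more than any imprinted gene of the list differed. No bias between the arrays was simulated, so that run does not show how well scaling corrects one or how small differences fare. Software was matplotlib 3.10.9, statsmodels 0.14.6, pandas 2.3.3 and numpy 2.4.6 under Python 3.11.15.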

Additional observations from a re-analysis of the deposited data

How the results depend on the processing

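No paired analysis was possible because each genotype has 1 array. The 135 recomputed differences of single imprinted genes, under 3 scalings, the brightest probe set and the addition of probe sets with several symbols, each moved by less than the scatter among genes of like level, and *Rian*, *Nap1l5*, *Rtl1* and *Slc22a18* were, of the 27, the only ones past 1.2-fold in each of these settings. Each of the 27 has 1 probe set, so choosing the brightest one could not change any of them. Adding shared probe sets changed only *Rian* among the 27, from 0.32 to 0.42. For the other genes, only the 3 scalings could move the value. With probe sets of several symbols 30 imprinted genes had a value and 3 were higher, the third being *Mirg* through the probe set it shares with *Mir410*, and 2 were lower. *Dlk1*, within 0.04 of 0 throughout, was the one whose sign changed. No scaling moved the median of all genes by as much as 0.01 on the log2 scale. Of 100 recomputed counts and medians, 20 moved. For the imprinted genes of the list, 1 was higher without genes below the median level, since *Nap1l5* drops out; a looser cutoff of 0.20 on the log2 scale gave 4 higher and 4 lower, adding *Ascl2*, *Peg10*, *Asb4* and *Nnat*, and one of 1.5-fold gave 0 and 0. For the other imprinted genes, 2 were lower without dim genes, 5 were higher at the looser cutoff, and 0 were higher and 2 lower at 1.5-fold. For the IGF2 pathway genes, quantile normalization left 0 higher, the brightest probe set gave 4 lower, leaving out dim genes gave 0 lower and a median of -0.00873, the looser cutoff gave 2 higher and 6 lower, and 1.5-fold gave 0 and 0. For the imprint maintenance genes, 2 were lower after quantile normalization, 3 at the looser cutoff and 0 at 1.5-fold. Where neither the cutoff nor the filter itself shows the cause, the cause was not tested. With 1 array per genotype, differences of this size cannot be set against replicate error, and those of dim genes are the least certain.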
